A study of Drosophila melanogaster with 2 samples.

Results

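Regions called for an ey-eGFP fusion were examined where their summits lay at promoters of noncoding RNA (ncRNA) genes away from protein-coding promoters. A summit, the position of the highest signal in a region, was kept when it fell within 500 bp of a transcription start site (TSS) of a gene that the Ensembl models class as ncRNA and more than 500 bp from every protein-coding TSS. Of 30000 summits called on both replicates pooled, 779 met this rule, and 168 of them (21.6%, 95% exact interval 18.7 to 24.6) were also in the stricter list that the authors term optimal, against 22.8% of all pooled summits. The optimal list holds the 6835 strongest pooled regions. The material was whole Drosophila melanogaster at the wandering stage of the third larval instar, of both sexes pooled, from 1 transgenic line that stably expresses Eyeless with GFP at its C-terminus. There were 2 biological replicates, numbered 1 and 3, which formed the only group, so positions are described and no conditions are compared. The labels' description names an antibody against GFP and their antibody field reads ey. The promoter that drives the fusion is not named in the labels, and no untagged larvae were analysed here.

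Eyeless, encoded by one of the Pax6 genes of the fly, binds DNA through a paired domain and a homeodomain, and it is best known for its part in forming the eye. Long ncRNA genes are transcribed by RNA polymerase II and need promoters like any other gene. Some act as RNA, as do the roX RNAs that coat the male X chromosome, others are hosts whose transcripts are cut into microRNAs or small nucleolar RNAs (snoRNAs), and many have no described role. The class used here was not made of long RNAs alone. The nearest ncRNA gene was named lncRNA for 640 summits (494 genes), named as antisense RNA (asRNA) for 86, and was a snoRNA host named Uhg for 3. For 40 summits the nearest annotated start was the 5′ end of a microRNA hairpin or mature product, which is a processing end and not a start of transcription, and 10 belonged to other small classes. Counted by transcript length, 735 summits lay at genes with a transcript of at least 200 bases and 44 at shorter ones.

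The sequences of 10 named summits are shown so that their base composition can be read directly. The first 6 are among the strongest summits outside exons of coding genes, and the other 4 are optimal summits of well known ncRNAs. Each is 101 bp centred on the summit, from the Release 6 (dm6) genome of RefSeq, written 5′ to 3′ on the strand of the ncRNA, with the longest run of A and T alone in capitals. The positions are chr3R:29214397-29214497 on the plus strand for CR31044 and chrX:12751361-12751461 on the plus strand for CR44619. Those of CR46102 (chr3R:25738133-25738233) and the antisense gene CR45999 (chr3R:4395281-4395381) are on the plus strand, and those of CR44676 (chr3L:19560755-19560855) and CR34052 (chrX:2322052-2322152) on the minus strand. Hsromega (chr3R:21296328-21296428), flam (chrX:21631654-21631754) and let7C (chr2L:18455657-18455757) are read on the plus strand and roX1 (chrX:3862442-3862542) on the minus strand.
CR31044: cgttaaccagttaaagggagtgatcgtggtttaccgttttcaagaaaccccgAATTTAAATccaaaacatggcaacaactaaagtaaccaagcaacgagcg
CR44619: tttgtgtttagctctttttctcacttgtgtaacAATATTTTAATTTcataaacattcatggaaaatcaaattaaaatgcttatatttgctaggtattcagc
CR46102: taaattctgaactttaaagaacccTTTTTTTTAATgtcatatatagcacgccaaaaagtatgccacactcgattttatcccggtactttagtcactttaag
CR44676: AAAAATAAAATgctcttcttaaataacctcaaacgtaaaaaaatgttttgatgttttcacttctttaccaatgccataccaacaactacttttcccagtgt
CR45999: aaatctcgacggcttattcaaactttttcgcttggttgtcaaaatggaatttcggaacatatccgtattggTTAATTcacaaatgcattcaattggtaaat
CR34052: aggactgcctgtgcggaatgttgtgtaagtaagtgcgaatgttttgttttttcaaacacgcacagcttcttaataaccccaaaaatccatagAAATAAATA
Hsromega: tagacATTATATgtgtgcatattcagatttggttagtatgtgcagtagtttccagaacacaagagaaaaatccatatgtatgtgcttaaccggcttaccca
roX1: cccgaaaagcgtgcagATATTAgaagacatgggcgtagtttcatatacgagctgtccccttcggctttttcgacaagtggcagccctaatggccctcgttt
flam: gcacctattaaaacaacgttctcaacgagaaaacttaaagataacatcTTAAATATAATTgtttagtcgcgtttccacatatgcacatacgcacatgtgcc
let7C: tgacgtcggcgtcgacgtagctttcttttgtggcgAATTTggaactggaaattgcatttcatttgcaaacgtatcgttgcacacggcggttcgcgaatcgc
The capitals span 13 bases in CR44619, 12 in flam and 11 in CR46102 and CR44676, and they are shortest in let7C, with 5 bases. Of the 10 consensus motifs searched, 1 occurred in these windows, an AGATAA match (the GATA factor consensus) from base 39 of the flam window.

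Strength at ncRNA promoters was that of an average pooled region and below that of coding promoters. The deposited signal, the authors' own strength value on a scale they do not state, ran from 15.4 to 2189 over the 779 summits with a median of 34.3, against 34.2 over all pooled summits. Summits within 500 bp of a coding TSS had a median of 46.9, and distal summits, over 500 bp from every ncRNA and coding TSS, one of 30.8. In the same order, the optimal list held 21.6% of ncRNA-promoter summits, 31.9% of the 8370 summits at coding TSSs and 19.2% of the 20851 distal summits. The ncRNA share thus lay near that of all pooled summits and below that of coding promoters. Optimal ncRNA-promoter summits had signals of at least 80.5 with a median of 156, and the others reached at most 79.1 with a median of 27.9. Regions are not replicate samples, so these shares are given with counting intervals and were not tested. In whole larvae, strong binding in few cells and weak binding in many cells cannot be told apart.

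**Figure D1:**
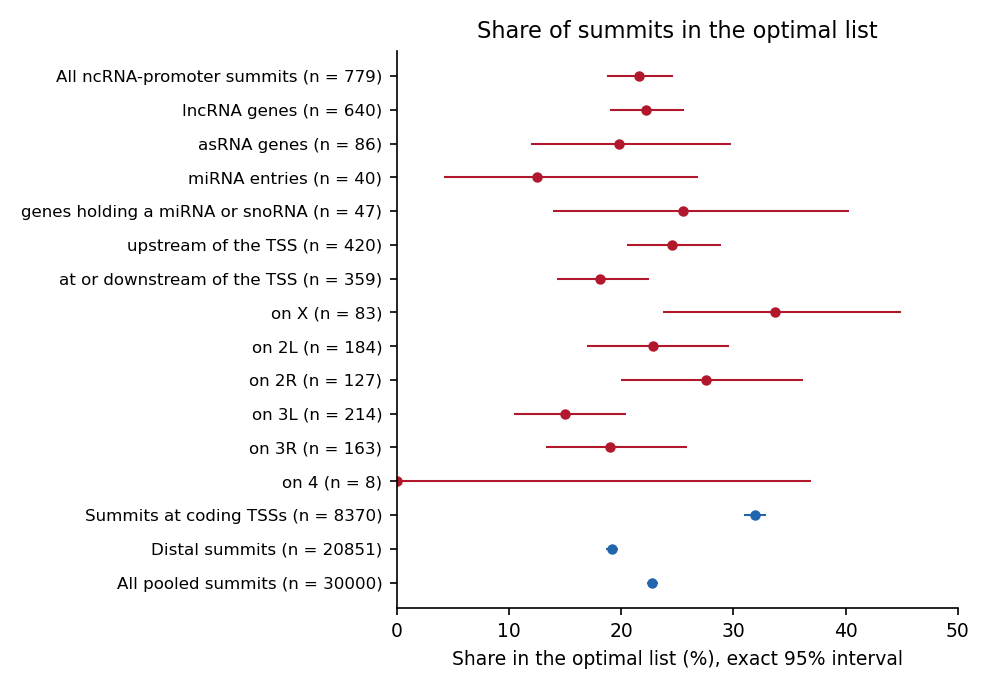
Percent of summits that were in the optimal list (x axis) for all 779 ncRNA-promoter summits and their subsets (red) and for coding-TSS, distal and all pooled summits (blue); points are shares and lines their 95% exact intervals over regions. The ncRNA-promoter share of 21.6% lies left of the coding-TSS share of 31.9%, and subsets run from 0% on 4 to 33.7% on X.

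Summits were gathered less at ncRNA starts than at coding starts. To separate the 2 kinds of start, 925 TSSs of ncRNA genes of at least 200 bases that lay over 4500 bp from any coding TSS were set beside 19253 coding TSSs. Per kb, pooled summits were 1.23 times as dense within 500 bp of these ncRNA TSSs as at 1000 to 2000 bp from them, against 2.32 times at coding TSSs. For optimal summits the ratio was 0.982 at ncRNA TSSs and 3.29 at coding TSSs. The strongest 6835 regions of each replicate gave the same picture, with 0.919 at ncRNA TSSs against 3.35 at coding TSSs in replicate 1, and 0.981 against 3.27 in replicate 3. An optimal summit lay within 500 bp of 5.51% of the ncRNA TSSs (95% exact interval 4.13 to 7.19) and of 21.1% of the coding TSSs. In the 200 bp upstream of the start there were 20.5 optimal summits per 1000 ncRNA TSSs and 115 per 1000 coding TSSs. Per kb that is 0.103 at ncRNA TSSs, or 1.73 times the density at 1000 to 2000 bp (19 summits), against 8.21 times at coding TSSs. The strongest regions of the replicates gave 1.62 times at ncRNA TSSs in replicate 1 and 1.83 times in replicate 3. Over the whole 500 bp on each side, optimal summits were thus about as frequent at isolated ncRNA starts as farther out, and in the 200 bp upstream they were denser, at a small count. Such counts were not particular to the start. The 100 bp bin centred 550 bp downstream held 11 optimal summits, as did the fullest upstream bin, centred at 150 bp. The coding TSSs were not filtered for distance to other genes, so neighbouring promoters add to their counts.

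**Figure D2:**
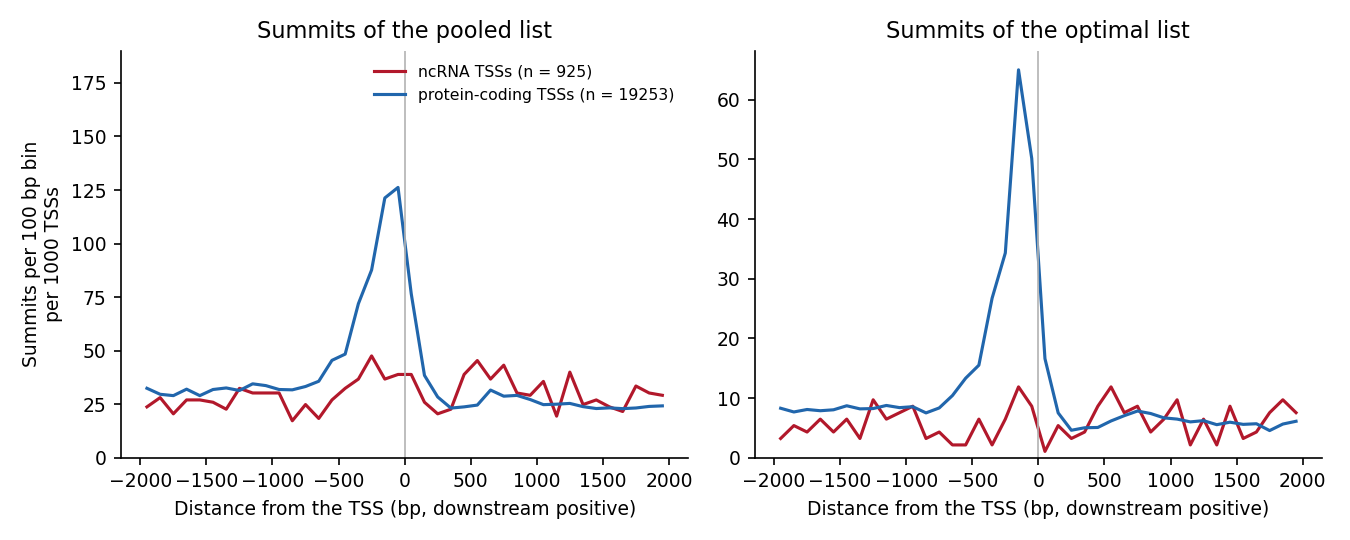
Summits per 100 bp bin per 1000 TSSs (y axis) by distance from the TSS in bp (x axis, downstream positive) for 925 isolated ncRNA TSSs (red) and 19253 coding TSSs (blue), in the pooled list (left) and the optimal list (right). The blue lines peak just upstream of the start at 126 (pooled) and 65.0 (optimal), and the red lines reach at most 47.6 and 11.9.

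Within the 500 bp window, summits lay on both sides of the ncRNA start. Of the 779, 420 were upstream (53.9%, 95% exact interval 50.3 to 57.5) and 359 at the start or downstream of it, with a median distance of 234 bp. Among optimal ones, 103 of 168 were upstream (61.3%, 53.5 to 68.7), and among the rest 317 of 611 (51.9%). Side was taken from the nearest annotated start. A summit inside an ncRNA gene thus counts as upstream where a later start of that gene is nearest, as at Hsromega and CR43650. The optimal share was 21.2% within 100 bp of the start and 23.4% at 401 to 500 bp, so it did not fall steadily with distance. The nearest coding TSS was 504 to 59375 bp away, with a median of 3140 bp. By coding-gene annotation 525 summits (67.4%) were outside coding genes, 211 in introns, 19 in coding sequence and 24 in other exons. Of all pooled summits, 35.3% were outside coding genes. Where a coding gene covered the summit, the ncRNA gene was on its opposite strand for 164 summits (38 optimal), on its same strand for 87 (15 optimal), and faced genes on both strands for 3. Of the 779 summits, 149 lay within 500 bp of a stronger pooled summit. Of these 11 (7.38%) were optimal, against 24.9% of the 630 with no stronger neighbour. A low share follows from this choice, because the optimal list holds the strongest regions. The same share over all pooled summits was not computed.

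The share in the optimal list varied between chromosome arms. On X, 28 of 83 ncRNA-promoter summits were optimal (33.7%, 95% exact interval 23.7 to 44.9), against 24.5% of all pooled summits on X. On 3L it was 32 of 214 (15%, 10.5 to 20.4), against 22.1% of all pooled summits there. On 2R 35 of 127 were optimal (27.6%, 20 to 36.2), against 22.6% of all pooled summits there. On 2L it was 42 of 184 (22.8%, 17.0 to 29.6), against 22.6%, and on 3R 31 of 163 (19.0%, 13.3 to 25.9), against 22.8%. The interval included the share of all pooled summits of the same arm on X, 2R, 2L and 3R, and did not on 3L. None of the 8 on chromosome 4 was optimal, which allows a share of up to 37.5%, and the share of all pooled summits on 4 was 10.3%. In the replicate lists taken singly, 26.3% of the ncRNA-promoter summits on X were among the 6835 strongest of replicate 1 (95% exact interval 17.8 to 36.4), against 22.8% of all its regions on X. In replicate 3 it was 38.7% (27.6 to 50.6), against 29.0% of all its regions on X. On 3L it was 14.7% (10.4 to 20.1) against 21.8% in replicate 1. In replicate 3 the 3L share was 19.1% (13.4 to 26.0) against 23.8%. The 3L interval thus left out the share of all 3L regions in replicate 1 and included it in replicate 3. The X value was thus near that of all X regions in replicate 1, and X stood high over the whole list in replicate 3. These differences between arms were not tested.

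A minority of ncRNA genes had a summit at their start. Counting annotated ncRNA genes with a TSS over 500 bp from any coding TSS, 719 of 2723 (26.4%, 95% exact interval 24.8 to 28.1) had a pooled summit within 500 bp and 186 (6.83%) an optimal one, against 49.6% and 23.0% of 13945 coding genes. Genes named lncRNA had a pooled summit in 523 of 1694 cases (30.9%), asRNA genes in 73 of 328 (22.3%) and microRNA entries in 111 of 658 (16.9%). These counts took any pooled summit, also one within 500 bp of a coding TSS, and credited it to every gene in reach. The microRNA entries list hairpins and mature products apart, so 1 locus can add several. Counted by nearest ncRNA start and by name, the 779 summits belonged to 614 genes, of which 467 had 1 summit, 133 had 2 and 14 had 3 or more. CR46006, which holds mir-276a, had 6 summits, 1 of them optimal. CR43334, the host of the growth-promoting microRNA bantam, had 4, none optimal, with signals from 17.2 to 63.4. CR44605 and CR46352 had 3 optimal summits each.

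The strongest ncRNA-promoter summits ranked high in the pooled list, and most of them lay inside coding genes. Of the 15 strongest, all in the optimal list, 9 were in introns of coding genes, 1 in another exon and 5 outside coding genes. These 5 of 15 are near the 35.3% of all pooled summits that lay outside coding genes. The ncRNA was antisense to the coding gene at 8 of the 9 intronic ones. Of the 15, 10 were upstream of the ncRNA start and 5 downstream. They ranked from 10 to 520 among the regions of replicate 1 and from 27 to 600 among those of replicate 3.

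The first was CR31044 on 3R (region chr3R:29214097-29214674), the host of mir-279 and mir-996, microRNAs known for limiting the formation of carbon dioxide-sensing neurons. Its summit, 115 bp upstream of the start and 5725 bp from the nearest coding TSS (that of eEF1gamma), had a pooled signal of 2189, rank 17 of all 30000. The signal was 1236 in replicate 1 and 971 in replicate 3. Its rank was 10 in replicate 1 and 27 in replicate 3, so it was among the strongest regions of both. CR44619 on X followed with a pooled signal of 1822, and with 909 in replicate 1 and 962 in replicate 3. That summit was 456 bp upstream of the CR44619 start and inside the gene of another ncRNA, Vinr, which has been described in the response to viruses. Next was CR43626 on 3L, the host of mir-282, with a pooled signal of 1446, and 813 in replicate 1 and 672 in replicate 3. It was 430 bp upstream of the start, in an exon of the coding gene CG43389 on the same strand. All 3 were in the top 62 regions of both replicates.

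Several of the next were in introns of genes of known pathways. CR45997, in an intron of mbl, the gene of the splicing regulator Muscleblind, had a pooled signal of 1194, with 697 in replicate 1 and 528 in replicate 3. CR46102 lay antisense in LpR2, a lipophorin receptor gene of lipid uptake, and had 1136 pooled, with 609 in replicate 1 and 574 in replicate 3. CR34052 lay antisense in Raf, the kinase gene of the Ras pathway, and had 848 pooled, with 471 in replicate 1 and 389 in replicate 3. Both summits were downstream of the ncRNA start, by 156 bp at CR46102 and by 162 bp at CR34052. CR44867 in beat-Ib, an immunoglobulin superfamily gene, had 763 pooled, with 439 in replicate 1 and 363 in replicate 3. CR44478 in Socs36E, a feedback inhibitor of JAK-STAT signalling, had 752 pooled, with 404 in replicate 1 and 365 in replicate 3. CR44331 in puc, the phosphatase gene that restrains JNK signalling, had 577 pooled, with 305 in replicate 1 and 282 in replicate 3. At these 3 genes the ncRNA was antisense to the coding gene, and the nearest coding start was at least 5618 bp away. CR46035 and CR46036 both lay antisense in osa, which encodes a Brahma complex subunit, with their summits 2860 bp apart. CR46035 had 561 pooled, with 284 in replicate 1 and 281 in replicate 3, and CR46036 had 537 pooled, with 325 in replicate 1 and 229.6 in replicate 3.

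The rest of the 15 were outside coding genes or at antisense genes. CR44676 on 3L, 8385 bp from a coding TSS, had 989 pooled, with 618 in replicate 1 and 366 in replicate 3. Its 2 values differed by 1.68 times, the widest ratio among the 15. CR45668 on X, with 823 pooled, 454 in replicate 1 and 369 in replicate 3, was 644 bp from a TSS of Act5C, a cytoplasmic actin gene. The antisense gene CR45999 on 3R had 855 pooled, with 402 in replicate 1 and 447 in replicate 3, and asRNA:CR45908, in an intron of CG1943, had 803 pooled, with 443 in replicate 1 and 376 in replicate 3. In 13 of the 15 the value was higher in replicate 1. Signals of separate lists are on scales that may differ, so their order between replicates carries no comparison of binding.

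**Figure D3:**
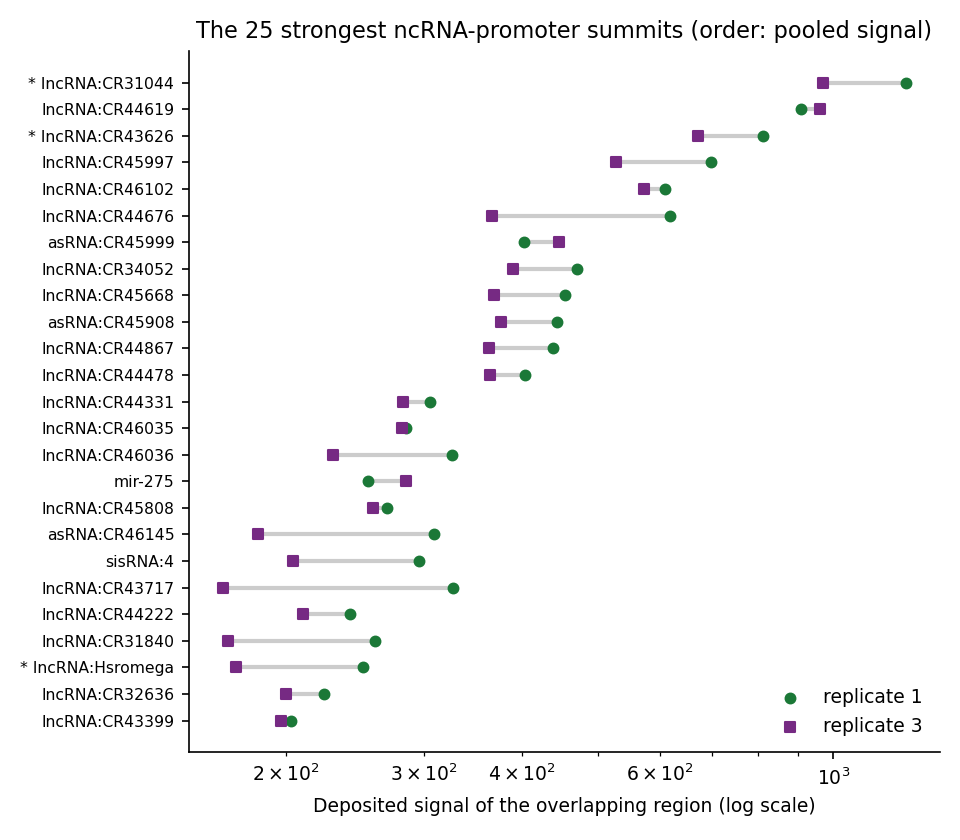
Deposited signal (x axis, log scale) in replicate 1 (circles) and replicate 3 (squares) of the region that overlaps each of the 25 strongest ncRNA-promoter summits, ordered from the top by pooled signal; an asterisk marks a gene that holds a microRNA or snoRNA. CR31044, CR44619 and CR43626 head both replicates, with values of 672 to 1236.

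Hosts of microRNAs and snoRNAs accounted for 47 of the 779 summits, at 25 genes, and 12 of the 47 (25.5%, 95% exact interval 13.9 to 40.3) were optimal, which is close to the 22.8% of all pooled summits. Besides CR31044 and CR43626, optimal summits were found at CR43857, the host of mir-275 (pooled signal 264), and at CR43650, the host of mir-8, a regulator of growth through insulin signalling (376 and 109.6 for 2 summits). A further summit 425 bp upstream of mir-275 itself, inside CR43857, had a signal of 533. Hsromega, which holds mir-4951, had 423 at its optimal summit. CR46006 had 207 at its optimal summit, and asRNA:CR46194, the host of mir-281, had 95.4. Near the threshold were CR43651, the host of mir-14, a microRNA of cell survival and fat metabolism, with 88.4, and let7C, with 87.9. CR43651 had 26.0 in replicate 1 (rank 12004) and 30.3 in replicate 3 (rank 8326), outside the 6835 strongest regions of both. let7C had 59.5 in replicate 1 and 42.0 in replicate 3. let7C encodes mir-100, let-7 and mir-125, which act in the timing of metamorphosis, and its summit was 10 bp upstream of the start. Of the snoRNA hosts, Uhg4 had 260.2, with 127 in replicate 1 and 133 in replicate 3. Uhg1 had 89.8, with 28.3 in replicate 1 and 54.1 in replicate 3, while Uhg8, at 29.2, was not optimal. Hosts of other well known microRNAs had weak summits that were not optimal, among them CR42651 (mir-10, at most 41.5) and CR45919 (the neuronal mir-124, at most 24.8).

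More of the host genes than of the other ncRNA genes had a summit at a start. Among genes with a start over 500 bp from any coding TSS, 24 of 42 hosts (57.1%, 95% exact interval 41.0 to 72.3) had a pooled summit and 10 (23.8%) an optimal one, against 580 (29.0%) and 160 (7.99%) of 2002 ncRNA genes of at least 200 bases that hold no small RNA. Here too any pooled summit was counted, whatever its distance to a coding TSS. The hosts were longer, with a median gene length of 5136 bp against 708 bp, and had 1.57 annotated starts per gene against 1.05. Counted per start, 36 of 66 host starts (54.5%) and 603 of 2096 other starts (28.8%) had a pooled summit. The part of gene length in this difference was not tested. Of the 39 host starts over 4500 bp from a coding TSS, 59.0% had a pooled summit, against 26.4% of all 925 such ncRNA starts. For optimal summits the shares were 7.69% (95% exact interval 1.62 to 20.9) and 5.51%, so among isolated starts the optimal share of hosts was near that of all of them.

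Within the list of well known lncRNAs, Hsromega had the strongest summit. This list holds the hosts Hsromega, let7C and iab8 but not CR31044 or CR43626. Hsromega is a heat shock-inducible nuclear RNA, and its summit had 423 pooled, with 250.4 in replicate 1 and 173 in replicate 3. That summit was 243 bp upstream of the nearest annotated start, but past the first start of Hsromega and inside an ncRNA exon. Of the 2 roX RNAs of dosage compensation, roX1 had 111 pooled, with 55.0 in replicate 1 and 52.7 in replicate 3, and roX2 had 21.0 pooled, with 16.0 in replicate 1 and no overlapping region in replicate 3. roX1 was thus in the optimal list and roX2 was not. At flam, a locus of transposon-silencing small RNAs in the ovary, the strongest of 3 summits had 129 pooled, with 69.8 in replicate 1 and 54.0 in replicate 3. Summits outside the optimal list were found at acal (41.4), an RNA of JNK signalling in the embryo, at yar (38.2), an RNA that affects sleep, and at noe (20.9). The Hox complex RNAs iab8 (20.6) and iab4 (20.4) and the RNA of RNase MRP (19.7) were near the low end of the list. Each of acal, yar, iab8, iab4 and RNase MRP RNA had an overlapping region in 1 replicate alone. No pooled summit lay within 500 bp of a start of bxd, sphinx, CRG, cherub, Vinr, TS14, both 7SL RNA genes or the RNA of RNase P.

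Antisense genes held 86 of the summits, at 75 genes, and 17 (19.8%, 95% exact interval 12 to 29.8) were optimal, again close to the 22.8% of all pooled summits. Their signals ran from 15.4 to 855 with a median of 32.8. Of the 86, 62 summits lay inside a coding gene, 58 of them inside one that the antisense gene faces on the opposite strand. The optimal antisense summits were 520 to 1712 bp from a coding TSS, and 13 of the 17 were upstream of the nearest antisense start. After CR45999 and asRNA:CR45908 the strongest was asRNA:CR46145, 4 bp from its start and 660 bp from that of the tyrosine kinase gene FER, with 504 pooled, 309 in replicate 1 and 184 in replicate 3.

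Overlap with the replicate lists was close to that of other pooled summits. Of all 779 ncRNA-promoter summits, 83.1% were overlapped by a region of replicate 1, 75.9% by one of replicate 3, 63.0% by both and 4.11% by neither. For all pooled summits these shares were 82.2%, 76.3%, 63.4% and 4.85%. Of the 168 optimal ones, 98.2% were overlapped in both replicates, and 82.1% by one of the 6835 strongest regions of each. Optimal coding-TSS summits gave 97.9% and 81.7%, and optimal distal ones 98.4% and 78.9%. The optimal list was made from these same replicates, so high overlap in it follows from how it was chosen. Across the 491 summits covered in both, Spearman's rho of the replicate signals was 0.79, and it was 0.79 over the 165 optimal and 0.47 over the 326 other ones. These are descriptions over regions of 1 pair of libraries, and neighbouring summits can share 1 replicate region. The strongest outside the optimal list were a second summit of CR43626 (79.1), CR44511 (78.4) and mir-4974 (77.6), each found in both replicates. The weakest were asRNA:CR44976, CR45792 and CR45702, all at 15.4, of which CR45702 had no overlapping region in either replicate.

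**Figure D4:**
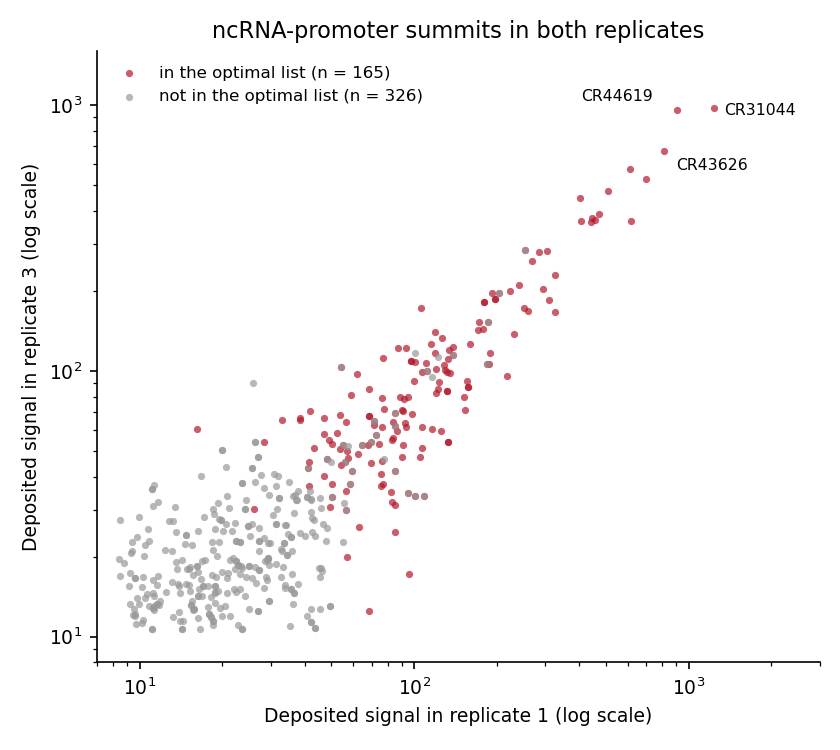
Deposited signal in replicate 1 (x axis) and replicate 3 (y axis), both on log scales, of the regions that overlap each ncRNA-promoter summit, for the 165 optimal (red) and 326 other (grey) summits found in both replicates. The 3 labelled hosts and lncRNAs lie at the top right, and the grey points form a broad cloud at low signal.

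Optimal ncRNA-promoter summits sat in AT-rich sequence. In the 101 bp around the summit their mean GC content was 34.6% ± 8.38 (SD over 168 regions), against 45.1% ± 7.02 in windows centred 300 bp to either side. The difference averaged −10.6 percentage points, and GC was lower at the summit in 79.8% of them and in 13 of the 15 strongest. At CR44867 it was 26.7% against 52.0% in the flanks and at CR46035 26.7% against 52.0%, while at asRNA:CR45999 it was 33.7% against 33.2%. For summits outside the optimal list it was 40.6% against 42.6%, a difference of −2.03 points. Other optimal summits also lay in AT-rich sequence, with 35.7% against 44.1% at coding TSSs and 33.6% against 45.1% at distal sites. The longest run of A and T alone averaged 10 bases at optimal ncRNA-promoter summits and 8.03 in their flanks, and 29.2% of these summits had a run of at least 12. Coding-TSS and distal optimal summits had such a run in 31.9% and 30.2% of cases, close to the share at ncRNA promoters.

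**Figure D5:**
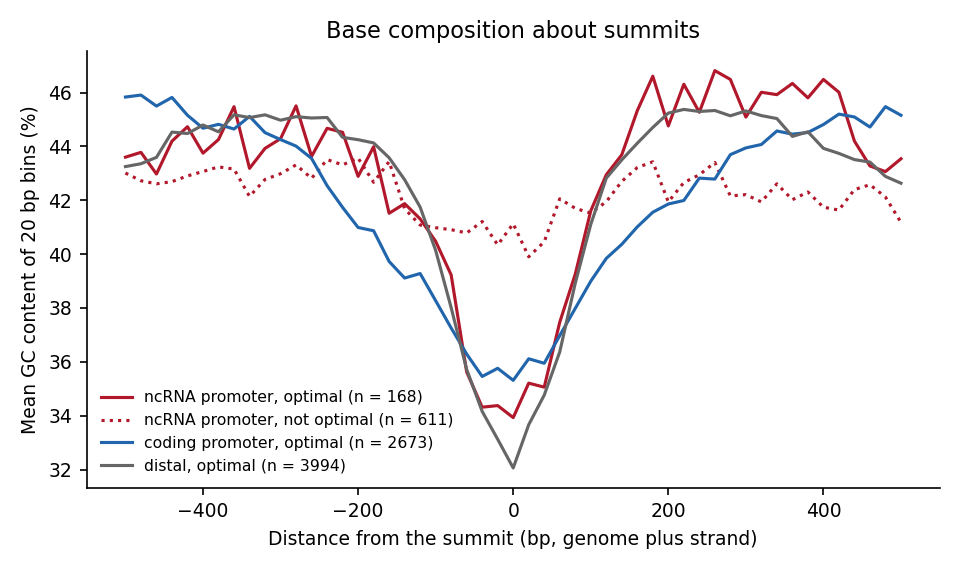
Mean GC content of 20 bp bins (y axis, percent) by distance from the summit in bp (x axis) for ncRNA-promoter summits in the optimal list (red, solid) and outside it (red, dotted), and for optimal summits at coding TSSs (blue) and distal sites (grey). The 3 solid lines dip at the summit, and the dotted line changes little.

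DRE and Motif 1, both found at coding core promoters, were nearly missing from ncRNA-promoter summits. Each motif was searched on both strands in the same 101 bp. DRE (TATCGATA), the DNA replication-related element of many housekeeping promoters, was found at 0 of 168 optimal ncRNA-promoter summits, which allows a share of up to 1.79%, against 3.67% of optimal coding-TSS summits and 0.225% of distal ones. Motif 1, another core promoter element (1 mismatch allowed), was found at 1 of 168 (0.595%), against 2.96% at optimal coding-TSS summits and 0.576% at distal ones. DRE was found in 0.391% and Motif 1 in 0.356% of equal windows at all ncRNA starts over 500 bp from a coding TSS. In both motifs the ncRNA-promoter summits were thus nearer to distal summits than to coding promoters, though for Motif 1 the optimal summits alone do not settle it.

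Motifs of A and T were more frequent at the summit than beside it. The TATA box TATAAA was found at 16.7% of optimal ncRNA-promoter summits and 9.23% of their flank windows, AGATAA at 8.93% and 3.27%, and the homeodomain core TAATTA at 8.33% and 5.06%. GAGAG, which the GAGA factor binds, went the other way, with 8.33% at the summits and 17.3% in the flanks, as it did at optimal coding-TSS summits (9.61% and 14.5%) and distal ones (9.64% and 17.1%). Over all ncRNA starts the shares were 13.4% for TATAAA, 5.41% for AGATAA, 5.23% for TAATTA and 11.9% for GAGAG. At optimal coding-TSS and distal summits, TATAAA was found in 19.6% and 20.6%, AGATAA in 7.07% and 8.24% and TAATTA in 8.79% and 8.81%. The paired-domain consensus of Pax6 (1 mismatch allowed), the type of motif that an Eyeless paired domain can bind, was found at 0 of the 168 optimal and 6 of the 611 other ncRNA-promoter summits, and in 0.417% of all pooled summits. The E-box CACGTG (0.595%), the AP-1 motif TGACTCA (0.595%) and the Zelda motif CAGGTAG (0 of 168) were rare at the optimal ncRNA-promoter summits. A motif match in a window is a description of its letters, and these shares move with base composition.

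The limits of the rule fell among regions of varied strength. The last summits inside 500 bp of an ncRNA start were CR45640 (80.5) and CR44078 (224) at 499 bp and CR45277 (109.8) at 500 bp, all optimal. The first outside, at 501 bp, were asRNA:CR43629 (29.9) and CR44628 (33.8). The nearest summits over 500 bp from a coding TSS were CR44200 (82.7) at 504 bp and CR45010 (119) at 508 bp, and the last one within that distance was sncRNA:CR43701 (15.7) at 497 bp.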

How the data were processed

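ChIP-seq regions of 2 biological replicates, whose labels give separate biological replicate numbers, were taken as the authors deposited them in dm6, in 1 list per replicate, a pooled list and an optimal list. The signal of each region is the authors' deposited strength value of unstated scale, and the −log10 q-value they deposited sat at its maximum in 26.9% of pooled regions and was not used. The lists for dm3 were not used. The sources used here name no aligner, peak caller, control handling or threshold of the irreproducible discovery rate, and read depth is unknown, so intervals cover counting error over regions alone. The replicate lists held 30000 and 27637 regions. Gene models were those of Ensembl release 115 (BDGP 6.54), with all transcript starts, and sequence was the Release 6 genome.

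Distances, overlaps (at least 1 bp), exact Clopper-Pearson intervals, GC content and motif matches were computed with Python 3.11.15, pandas 2.3.3, numpy 2.4.6 and scipy 1.17.1, and the scripts were tested on simulated data. The signal of a summit in a replicate was the highest among overlapping regions. A share of 0 was given the limit that 3 counts allow. The genes named are the 15 strongest optimal members, the 3 strongest and 3 weakest others, those at the distance limits, and members at well known ncRNAs, Uhg genes, asRNA genes and hosts of small RNAs; genes with 3 or more summits were named after their values were seen. Members and lists were chosen with earlier results of these data known. The names msa, bft, IBIN, SuRE and lincRNA.S9469 had no match among whole gene names. A hairpin named mir-bft was annotated inside CR43314, whose summit (72.4) was not optimal. Alternatives are given in the closing section.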

Additional observations from a re-analysis of the deposited data

How the results depend on the processing

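Of 46 results recomputed under another setting, 32 stayed within the tolerance set for them and 14 moved. For counts of summits and genes the tolerance was a fixed ratio. For the other results it was the SD between 2 replicate values, such as 0.2 points for the summit side and 3.38 for the optimal share. An SD of 2 values is rough, so the tally does not measure how stable the results are. The number of summits was 411 with an ncRNA start within 250 bp and 1407 within 1000 bp, and the number of genes reached was 406 and 1116. With each replicate left out in turn, the other list gave 643 to 807 summits, 628 to 730 genes, 20.6% to 25.3% of summits among the 6835 strongest (22.8% to 24.7% of the whole list), 52.9% to 53.2% upstream, 38.5% to 40.4% GC and 0.156% to 0.248% with DRE. Optimal summits alone gave 61.3% upstream, 34.6% GC and 0% DRE, against 53.9%, 39.3% and 0.128% for all 779. DRE was in 0.257% of windows of 100 bp to either side. The share overlapped in both replicates, 63.0%, was 47.8% when 50% of both lengths had to overlap and 20.9% among the 6835 strongest of each. No paired analysis was possible because the 2 replicates form 1 group and no test was made. Nearness to a start does not show that a region acts on that gene or that the gene is transcribed in larvae. With 2 libraries and no depth, a weak region and a missing one cannot be told apart.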
